A study of Mus musculus with 24 samples.

Results

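Kidney and skeletal muscle of the same 4 mice were compared at 16.5 weeks of age, gene by gene. The comparison uses 8 of the 24 libraries of the study, 4 of kidney and 4 of skeletal muscle, matched by the animal number in the labels. Mice 14 and 15 were female, mice 19 and 20 were male, and each mouse gave 1 library of either organ. All were C57BL6/J, an inbred laboratory strain, and the labels name no treatment and no altered gene, so both groups are untreated adult tissue. Total RNA was sequenced after removal of ribosomal RNA. Neither the muscle sampled nor the region of the kidney is named. The study also holds left ventricle, which is not used here, and mice of 86 weeks, whose kidney and muscle serve as a second set of samples.

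The kidney is built from nephrons, in which blood is filtered at the glomerulus and the filtrate is then modified by a row of epithelial tubule segments, each with its own transporters. Its proximal tubule takes back most of the filtered solutes and also makes glucose, breaks down amino acids and clears drugs. Skeletal muscle is made mostly of long multinucleate fibres filled with sarcomeres, the repeated units of actin and myosin that contract when calcium is released inside the fibre. Fibres are sorted into fast and slow types by the myosin heavy chain, troponins and calcium pump that they use. In both organs the fibres or tubules share the tissue with vessels, connective tissue, nerves and immune cells.

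The kidney libraries held 59.2 to 74.6 M counts (1 M is 1e6) and the muscle libraries 64.4 to 90.8 M. The 10 most abundant genes took 26.2 to 29.0% of the counts in kidney and 46.9 to 48.0% in muscle, and genes of the mitochondrial chromosome, ribosomal RNA included, took 22.1 to 24.995% and 13.995 to 16.6%. Levels are therefore given as CPM, the count of a gene per 1e6 counts of its library, after trimmed-mean (TMM) normalisation, whose factors ran from 1.18 to 1.31 in kidney and from 0.762 to 0.880 in muscle. CPM is not corrected for gene length, so a long gene gathers more counts than a short one at the same number of transcripts. Differences are log2 values, kidney minus skeletal muscle, with the standard error (SE) of a fit that has the mouse as a block. On this scale the median of all tested genes was -0.16. It was -0.13 with RLE size factors, -0.79 with upper quartile scaling and 0.43 with library totals, so small differences shift with the scaling. The muscle library of mouse 19 stood apart in kidney genes. Across 64 kidney genes with at least 100 CPM in kidney and a difference above 6 log2 units, its median level was 1.03% of the kidney level, against 0.349 to 0.415% in the muscle libraries of the other mice, and it was the highest muscle library for 60 of the 64. Across 65 muscle genes chosen in the same way, the kidney libraries sat at 0.1997 to 0.2426% of the muscle level. List counts without mouse 19 are given below where they changed.

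The organs differed widely. Of 39770 tested genes, 14421 or 36.3% differed at an adjusted p below 0.05 (edgeR quasi-likelihood test, Benjamini-Hochberg). Kidney was higher for 8766 of them, 22.0% of the tested genes, and skeletal muscle for 5655, or 14.2%. A test against a change of 2-fold kept 5315 genes, 13.4% of those tested: 3808 were higher in kidney (9.58%) and 1507 in muscle (3.79%). Kidney thus held 60.8% of all calls and 71.6% of those beyond 2-fold. These splits moved with the scaling, to 20.8% and 40.3% with upper quartile scaling and to 87.5% and 87.5% with library totals, and the first fell to 50.2% when genes needed 1 CPM in 4 libraries. "Higher in kidney" or "higher in muscle" means past the test against 2-fold from here on, unless another threshold is named.

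The shape of the difference was unlike on the 2 sides. Among genes past that test, the difference reached at least 16-fold for 623 genes on the kidney side and 349 on the muscle side. At 64-fold or more the counts were 174 and 166, at 256-fold or more 36 and 63, and at 1024-fold or more 4 and 24. With TMM, kidney thus had more separating genes and muscle had the larger extremes. The first of these reversed with upper quartile scaling, which gave 2299 genes higher in kidney and 3400 in muscle. The counts by size of fold were made with TMM only. Abundant genes separated most often: of 1613 genes with at least 100 CPM in the higher organ, 87.4% were called at any size, against 3.82% of 12839 genes below 0.5 CPM. By gene class, 52.86% of 20356 protein-coding genes and 14.98% of 3932 lincRNA genes were called. The level below which a value cannot be told from background was read from 1089 tested protein-coding olfactory receptor genes, taken as a low reference. Whether some of them are expressed in either organ was not tested. Of these 1089 genes, 82 (7.53%) were called at any size, 77 higher in muscle and 5 in kidney, and 2 were called beyond 2-fold. Their median difference was -0.35 with TMM, so with that scaling weak calls at low levels leaned to the muscle side even in this set. With library totals, the summed olfactory receptor level was higher in kidney. It was 650.7 to 690.9 CPM there and 528.3 to 640.0 CPM in muscle. The direction of the lean therefore depends on the scaling and is not read as a property of the background. The 95th percentile of the set was 0.229 CPM per kilobase of exon in kidney and 0.319 in muscle. Where the lower organ lay at or under that level, the difference measures the distance from background.

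**Figure D1:**
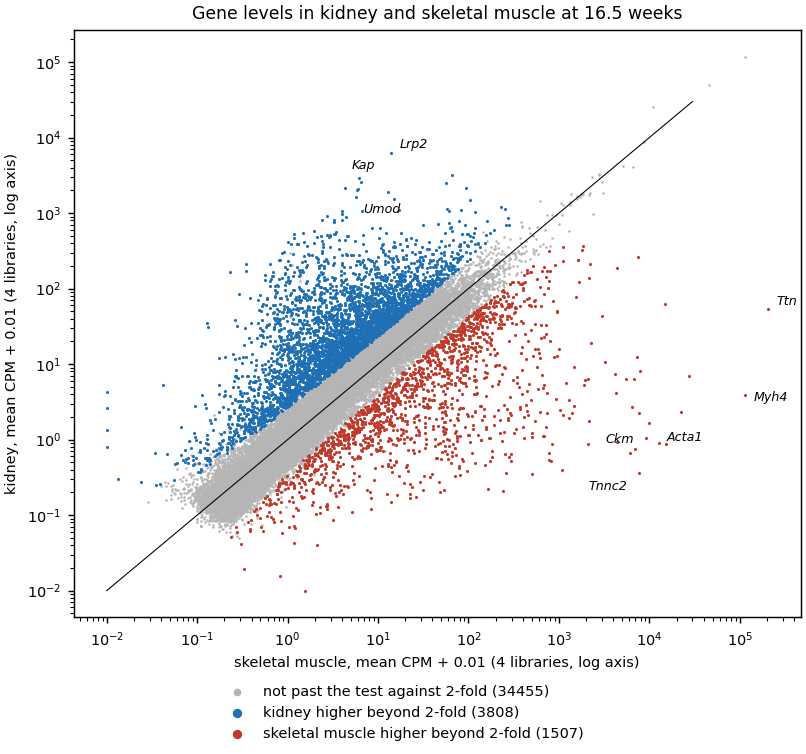
Mean CPM of each tested gene in kidney (y axis) against skeletal muscle (x axis), both log axes with 0.01 added, 4 libraries each; colours mark the 3808 genes higher in kidney and the 1507 higher in muscle beyond 2-fold, and the line marks equal levels. The muscle genes reach farther from the line than the kidney genes, with Myh4 at 114700 CPM in muscle and 3.86 CPM in kidney.

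The leading kidney genes, those with the largest difference at 100 CPM or more, included Kap, S100g, Slc27a2, Lrp2, Cyp2j5, Umod, Spink1, Klk1 and Akr1c21. Kap (chr6:133849851-133853762, GRCm38), the kidney androgen-regulated protein of the proximal tubule, stood at 1784, 1502, 4636 and 3787 CPM in the kidneys of mice 14, 15, 19 and 20, an order kept for all library values that follow. In muscle it stood at 0.873, 0.754, 22.6 and 0.460 CPM. The groups did not overlap, the 2 male kidneys were the highest, and muscle 19 was the only muscle library above 1 CPM. The difference was 10.58 ± 0.94 (SE; edgeR adjusted p against 2-fold 5.12e-05). S100g (chrX:162961992-162964599), a small calcium-binding protein of the distal nephron, had 237.5, 174.9, 129.7 and 126.2 CPM in kidney. Its 4 muscle libraries held 0.177, 0.0960, 0.444 and 0.172 CPM. Both female kidneys lay above both male ones for S100g, the reverse of Kap.

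Lrp2 (chr2:69424340-69586065), or megalin, the large endocytic receptor that takes filtered protein back into proximal tubule cells, had the highest mean CPM of the genes higher in kidney. Its kidney libraries held 7302, 7165, 5314 and 4847 CPM, 0.758% ± 0.173 of all kidney counts (SD, n = 4), and its muscle libraries 7.39, 6.05, 35.9 and 5.81 CPM. Slc27a2, a fatty acid transport protein and acyl-CoA synthetase, stood at 2594 ± 603 CPM in kidney and Cyp2j5, an arachidonic acid epoxygenase, at 817 ± 233 CPM. Umod, or uromodulin, the most abundant protein of normal urine and a product of the thick ascending limb, stood at 1642 ± 179 CPM in kidney. In muscle it was 1.64, 1.69, 18.5 and 1.21 CPM, so the spread among the muscle libraries came from mouse 19. Klk1 (tissue kallikrein), Spink1 (a trypsin inhibitor) and Akr1c21 (a hydroxysteroid dehydrogenase) differed by 9.13, 9.25 and 9.06 log2 units. Muscle 19 was the highest muscle library for each of these genes. Gpx3, the plasma glutathione peroxidase that the kidney secretes, was among the kidney-side genes of highest CPM, with a smaller difference. It stood at 3187 ± 385 against 66.1 ± 17.5 CPM.

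The 10 leading muscle genes were Myh4, Tnnc2, Tnnt3, Acta1, Atp2a1, Tnni2, Myl1, Ckm, Actn3 and Mylpf. All but the creatine kinase gene Ckm encode parts of the contractile apparatus or its calcium pump. Myh4 (chr11:67238029-67260446), the heavy chain of the fastest myosin (type IIb), stood at 115100, 109100, 126900 and 107900 CPM in muscle and at 1.46, 1.82, 9.998 and 2.16 CPM in kidney. It took 9.32% of all muscle counts. The difference was -15.35 ± 0.63, the largest in either direction among genes that the naming rule covers, and kidney 19 was the highest kidney library. Tnnc2 (chr2:164777161-164779967), the calcium sensor of fast fibres, followed at -14.56 ± 0.43, with 7743, 7265, 8551 and 6912 CPM in muscle and 0.157, 0.309, 0.727 and 0.193 CPM in kidney. The fast troponins Tnnt3 and Tnni2 differed by -14.24 and -13.24.

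Acta1 (chr8:123891769-123894751), the actin of skeletal muscle thin filaments, was at 12880 ± 1004 CPM in muscle and 0.891 ± 0.433 in kidney. Atp2a1, the fast calcium pump of the sarcoplasmic reticulum, was at 22540 ± 968 and 2.32 ± 0.957 CPM. Ckm, the muscle creatine kinase that buffers ATP, had 7667, 9109, 10840 and 8856 CPM in muscle and 0.550, 0.991, 1.52 and 1.13 CPM in kidney, with a difference of -13.14 ± 0.25 (edgeR adjusted p against 2-fold 2.75e-08). The groups were separate for every one of these genes in all 4 mice. Titin (Ttn), the elastic scaffold of the sarcomere, had the highest mean CPM of the genes higher in muscle. It held 214500, 193000, 198300 and 206400 CPM there, 16.5% of all muscle counts. Kidney held 63.3, 56.7, 56.9 and 40.5 CPM of it. Neb (nebulin, the ruler of the thin filament) and Tpm1 (alpha tropomyosin) were also among the highest, at 27780 ± 1741 and 14840 ± 1114 CPM. No exon length was available for Ttn or Neb, so neither has a level per kilobase.

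**Figure D2:**
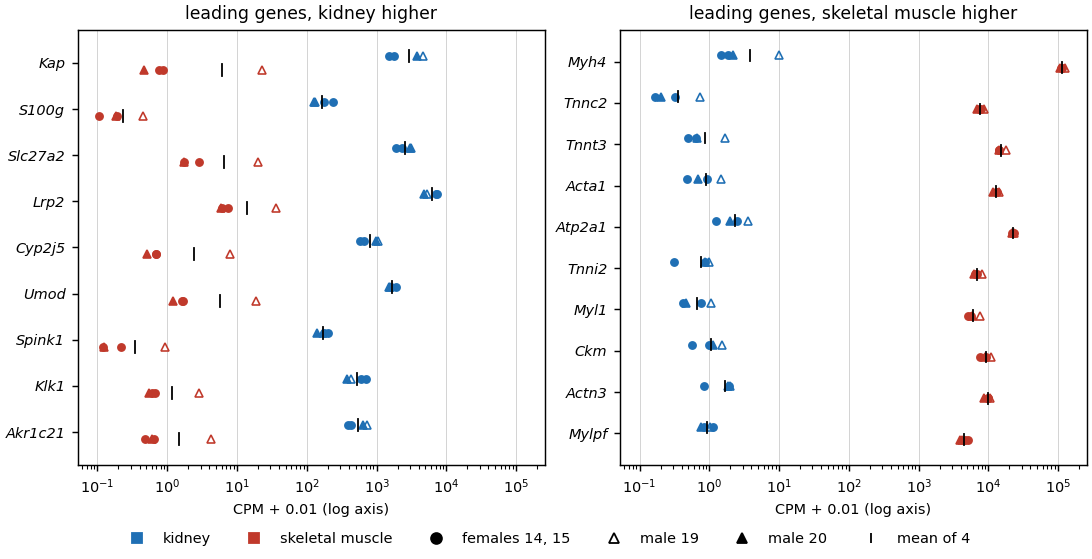
CPM of 9 leading kidney genes (left) and 10 leading muscle genes (right) in each library on a log axis, with 0.01 added; circles are females 14 and 15, triangles males 19 and 20, mouse 19 is open, and short black bars are means of 4. Open triangles stand at the right end of the muscle points for the kidney genes, for example Kap at 22.6 CPM against 0.460 to 0.873 CPM in the other muscle libraries.

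The promoters of the leading genes are shown because the 2 sides of the comparison differ in the letters they hold just before the start. RefSeq start sites on GRCm38.p6 gave promoters for 19755 of 39658 uniquely named tested genes, 24263 promoters in all. The 250 bases before the start of the first 2 matched genes of each side are printed 5′ to 3′ on the gene's strand, with capitals for any of the motifs searched on both strands: the HNF1 half-site GTTAAT, the HNF4 core CAAAGTCC, the E-box CAGCTG bound by MyoD, the TATA box TATAAA, and the MEF2 site and CArG box by name.
Kap, chr6:133853668-133853917, minus strand: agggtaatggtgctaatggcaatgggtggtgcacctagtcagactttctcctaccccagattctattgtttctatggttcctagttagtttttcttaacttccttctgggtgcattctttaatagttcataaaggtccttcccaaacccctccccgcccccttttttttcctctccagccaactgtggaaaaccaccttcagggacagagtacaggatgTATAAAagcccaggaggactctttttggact
S100g, chrX:162964600-162964849, minus strand: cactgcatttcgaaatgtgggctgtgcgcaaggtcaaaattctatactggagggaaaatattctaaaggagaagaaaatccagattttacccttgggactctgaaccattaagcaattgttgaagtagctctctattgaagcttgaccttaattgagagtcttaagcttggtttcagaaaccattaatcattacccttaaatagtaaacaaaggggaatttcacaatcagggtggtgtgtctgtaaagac
Myh4, chr11:67237562-67237811, plus strand: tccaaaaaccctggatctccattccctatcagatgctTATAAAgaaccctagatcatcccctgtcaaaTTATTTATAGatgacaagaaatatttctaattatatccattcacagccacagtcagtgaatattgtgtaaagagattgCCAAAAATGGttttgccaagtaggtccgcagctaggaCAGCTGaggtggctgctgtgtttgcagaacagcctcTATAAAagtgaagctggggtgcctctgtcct
Tnnc2, chr2:164779735-164779984, minus strand: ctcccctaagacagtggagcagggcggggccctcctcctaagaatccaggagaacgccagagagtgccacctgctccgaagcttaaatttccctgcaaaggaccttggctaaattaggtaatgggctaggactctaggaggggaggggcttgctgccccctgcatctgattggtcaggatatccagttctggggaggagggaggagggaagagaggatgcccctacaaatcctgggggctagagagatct
The capitals in Kap are a TATA box 31 to 26 bases before the start. Myh4 held a TATA box at the same place, another 213 to 208 bases before the start, an E-box at 67 to 62, and a CArG box upstream of the E-box that ends 95 bases before the start. Its MEF2 site at 182 to 173 is on the other strand and overlaps a TATA match there at 179 to 174. S100g and Tnnc2 held none of the 6 motifs in this window.

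Across sets of promoters, the intervals of the kidney and muscle shares were apart for the HNF1 half-site, the E-box and the MEF2 site, and overlapped for the HNF4 core, the CArG box and the TATA box. Among 162 promoters of 132 genes at least 64-fold higher in kidney, with 10 CPM or more there, the HNF1 half-site was in 23.5% (95% exact interval 17.2 to 30.7). It was in 2.88% of 139 promoters of 118 genes at least 64-fold higher in muscle and in 5.92% of all 24263. The HNF4 core was in 5.56%, 0% and 1.23%, the upper bound for muscle being 2.62%. On the muscle side, the E-box was in 32.4% (24.7 to 40.8) against 9.88% on the kidney side and 12.8% overall. The MEF2 site was in 17.3% (11.4 to 24.6) against 0.617% and 1.58%, and the CArG box in 5.76% against 1.23% and 1.35%. The TATA box was in 17.3% of the kidney set and 20.1% of the muscle set, against 11.2% overall. In the wider sets beyond 2-fold the shares lay closer to the overall share: 7.28% of 2817 kidney promoters held the HNF1 half-site, and 18.2% and 4.82% of 1058 muscle promoters held the E-box and the MEF2 site. Promoters of 1 gene overlap, and the intervals cover counting error only. A match is a run of letters, not a bound site.

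Genes of every nephron segment were higher in kidney. Of 26 proximal tubule transport genes, 26 were higher, with a median difference of 6.61 against -0.16 for all genes. Slc34a1, the phosphate cotransporter, had 1904, 1507, 2560 and 2094 CPM in kidney and 3.001, 2.47, 15.3 and 2.43 CPM in muscle. The glucose carrier Slc5a2 (SGLT2), the organic anion transporter Slc22a6 (OAT1) and the protein receptor Cubn differed by 7.07, 7.29 and 7.71. The smallest differences of the list were those of the amino acid exchanger Slc7a8, at 3.04, and Slc16a9, at 3.23. Of 18 brush border and peptidase genes, 17 were higher, led by Cltrn (collectrin), Miox and Mep1a. The water channel Aqp1 had 369.8 CPM in kidney and 78.2 CPM in muscle, a difference of 2.24. Naaladl1 was near equal at 1.48 and 1.51 CPM.

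In the loop of Henle list, 10 of 11 genes were higher in kidney. Slc12a1, the cotransporter that furosemide blocks, held 918.6, 1040, 748.8 and 1162 CPM in kidney and 1.75, 1.62, 10.9 and 1.51 CPM in muscle, a difference of 8.55 ± 0.68. The potassium channel Kcnj1 had 193.7, 186.2, 123.2 and 151.3 CPM in kidney and 0.750 to 2.30 CPM in muscle, and the growth factor Egf differed by 4.52, with Egf still at 93.3 CPM in muscle. Nos1, a nitric oxide synthase of the macula densa and also of the muscle membrane, was the exception at -4.24 ± 0.12, with 6.14 CPM in kidney and 115.1 CPM in muscle. The distal list had the same shape. Of its 12 genes 10 were higher in kidney, among them the thiazide-sensitive cotransporter Slc12a3 at 7.40 and the calcium buffer Calb1 at 8.14, whose muscle level was at background. The parvalbumin gene Pvalb, a calcium buffer of the distal tubule and of fast fibres, was higher in muscle at -9.24 ± 0.25: muscle held 4643, 3870, 3942 and 4444 CPM and kidney 10.02, 8.60, 5.67 and 4.81 CPM. Wnk1 was level, with a difference of 0.00 ± 0.17.

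The collecting duct was separated too, at lower levels. Of 12 principal cell genes 10 were higher, including the vasopressin-regulated water channel Aqp2, with 28.5, 27.8, 24.4 and 29.8 CPM in kidney and 0.709, 0.535, 0.9997 and 0.958 CPM in muscle. The sodium channel subunits Scnn1a, Scnn1b and Scnn1g differed by 4.76, 3.66 and 4.28. Stc1, at 2.59 against 1.30 CPM, and Elf5, with a difference of 0.36, did not pass the test. Of 15 intercalated cell genes 14 were higher, led by the proton pump subunits Atp6v0a4 (6.51) and Atp6v1b1 (5.64) and the anion exchanger Slc26a4 or pendrin (5.54). Dmrt2 was at -0.50.

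Podocyte and glomerular genes gave the smallest median of the segments, 2.20, with 10 of 14 higher in kidney. The basement membrane collagens Col4a3 and Col4a4 differed by 5.45 and 4.72. Nphs1 (nephrin, of the slit diaphragm) differed by 2.64. Synpo, an actin-binding protein of podocytes, stood at 45.5 CPM in kidney and 99.95 CPM in muscle, and Clic5 at 85.1 and 160.8 CPM, with differences of -1.15 and -0.92 that did not pass the 2-fold test. With upper quartile scaling the counts of this list were 7 higher in kidney and 2 in muscle. Among 10 endocrine and vitamin D genes 8 were higher, including Kl, or Klotho, the co-receptor for the phosphate hormone FGF23 (434 ± 32.8 CPM against 4.31 ± 1.31 CPM), the parathyroid hormone receptor Pth1r (6.32), the vitamin D receptor Vdr (5.82) and renin, Ren1 (4.54). Cyp24a1, which inactivates vitamin D, was 207.9, 41.2, 60.3 and 84.6 CPM in kidney, with mouse 14 highest. Epo was close to background in both organs, at 0.190 and 0.450 CPM.

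The metabolic lists of the kidney moved together. Of 12 genes of gluconeogenesis and fructose use 10 were higher in kidney. Fbp1, a rate-controlling enzyme of glucose synthesis, held 415.8, 366.0, 450.1 and 435.4 CPM in kidney and 0.464, 0.603, 2.41 and 0.556 CPM in muscle, a difference of 8.97 ± 0.43. Pck1 differed by 7.70, with muscle values of 4.73, 4.54, 9.44 and 33.0 CPM, in which mouse 20 was highest. G6pc, which releases free glucose, differed by 7.16 and the fructose kinase Khk by 4.76. The mitochondrial Pck2 (10.78 against 5.38 CPM) and the glucose 6-phosphate carrier Slc37a4 (a difference of 0.31) did not pass. Of 22 amino acid genes 21 were higher, among them Hao2 (8.41) and the argininosuccinate synthase Ass1 (8.27). Oat was level at -0.06.

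Of 26 drug, steroid and glutathione genes 25 were higher, or 23 without mouse 19, and the median was 6.14. Acsm2, a medium-chain acyl-CoA synthetase, had 893.6, 762.0, 3471 and 3164 CPM in kidney and 1.73, 2.04, 18.2 and 2.15 CPM in muscle. Cyp7b1, an oxysterol hydroxylase, differed by 3.73 ± 1.13 and missed the 2-fold test (edgeR adjusted p 0.108), with 2.00, 2.48, 71.8 and 91.8 CPM in kidney. Its 2 female kidneys lay near the muscle level of 1.07 CPM and its 2 male kidneys far above. The summed level of the list followed the same split, from 5076 CPM in the lowest kidney library to 12560 CPM in the highest. Of 18 peroxisomal genes 16 were higher, including Ehhadh (5.84) and catalase Cat (3.95). Peroxisomal differences were among the smaller ones of the kidney lists, with a median of 2.45.

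Kidney transcription factors separated the organs at levels well under those of the transporters. Of 24 listed, 21 were higher in kidney, with a median of 3.41. Hnf4a, a regulator of proximal tubule and liver genes, had 470.1, 440.5, 601.9 and 588.7 CPM in kidney and 1.91, 2.22, 6.37 and 2.76 CPM in muscle, a difference of 7.46 ± 0.27. Pax8 differed by 4.08 and Pax2 by 2.61. Tfcp2l1, a collecting duct factor, differed by 4.89 ± 0.58, with 6.79 and 6.73 CPM in the female muscles and 37.7 and 29.8 CPM in the male ones. Sim2 (-0.08), Bhlhe40 (-0.38) and Osr2 (1.14) did not pass. The adhesion genes of epithelia followed, with 20 of 22 higher in kidney: Cdh16, or Ksp-cadherin, differed by 7.16, E-cadherin Cdh1 by 6.04 and Krt8 by 5.25, while Krt19 (1.35) and Muc1 (1.38) missed the test.

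**Figure D3:**
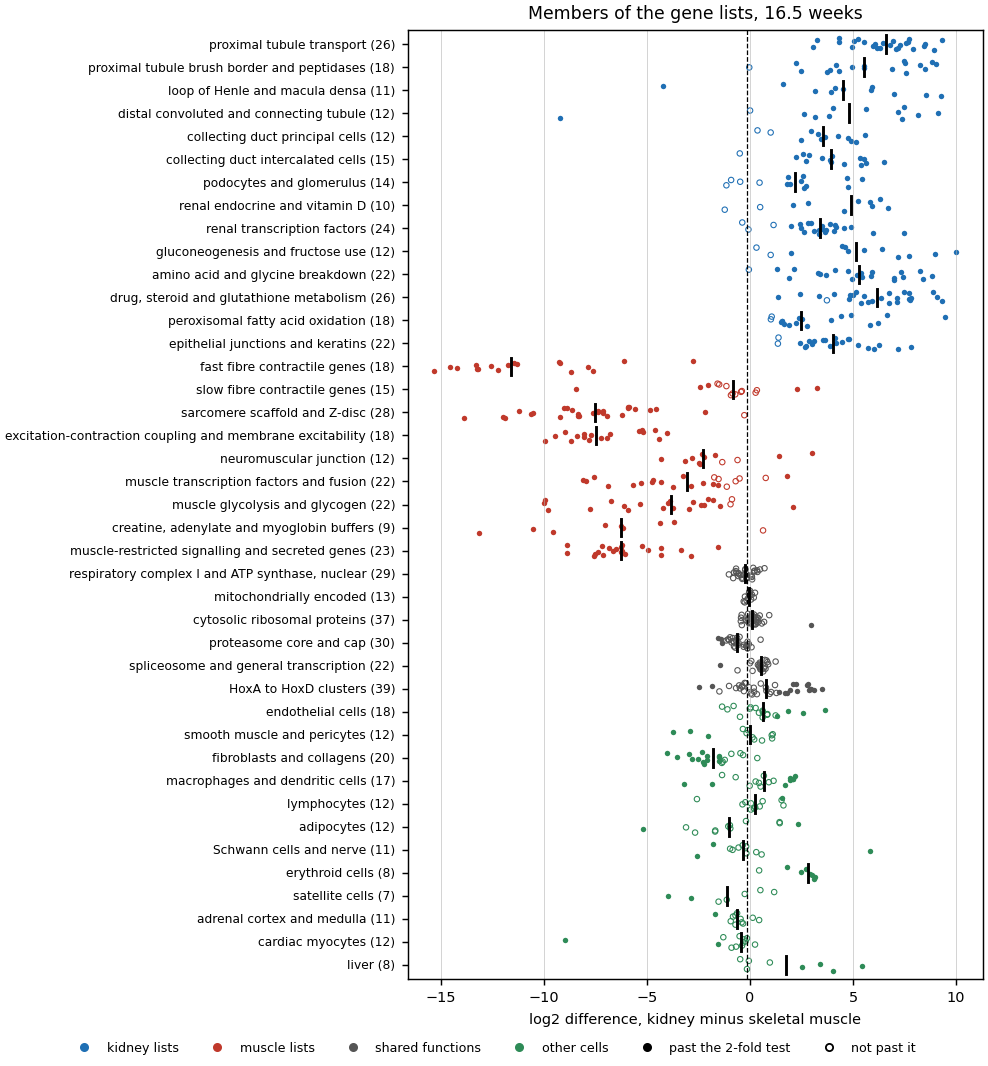
Log2 difference (kidney minus skeletal muscle, x axis) of every tested member of the 41 gene lists, 1 row per list with its number of members; filled points passed the test against 2-fold, open points did not, thick bars are list medians and the dashed line is the median of all genes, -0.16. The kidney lists lie to the right, with medians from 2.20 to 6.61, most muscle lists lie to the left, down to -11.61, and the slow fibre list and the shared functions sit near the dashed line.

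On the muscle side, the fast fibre programme was complete, and most of the slow list did not pass the test against 2-fold. Of 18 fast fibre genes 18 were higher in muscle, with a median of -11.61. After Myh4 the other fast heavy chains were Myh1 (type IIx), at 3507, 1811, 1441 and 1545 CPM in muscle, and Myh2 (type IIa), at 647.1, 340.0, 341.9 and 334.0 CPM. Muscle 14 was the highest for both. Per kilobase of exon, Myh4 was at 19070 CPM, Myh1 at 326.8 and Myh2 at 58.3, while Myh7, the heavy chain of slow fibres, was at 0.702 in muscle and 0.373 in kidney. Myh7 held 5.85, 6.05, 6.04 and 6.25 CPM in muscle and 2.92, 4.04, 2.61 and 3.28 CPM in kidney. Its difference of -0.93 ± 0.15 did not pass the test against 2-fold. The slow troponins Tnni1, Tnnt1 and Tnnc1 and the slow light chains Myl2 and Myl3 had mean muscle levels between 0.809 and 1.43 CPM and were not called even without the 2-fold margin.

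At any size 8 of the 15 slow fibre genes were higher in muscle and 2 in kidney, against 14.2% and 22.0% of all tested genes. Beyond 2-fold 3 were higher in muscle, or 2 without mouse 19, against 3.79% of all tested genes, and the list median was -0.85. Mybpc1, the slow myosin-binding protein C, was one, at 1820, 452.4, 98.9 and 289.0 CPM in muscle and about 1 CPM in kidney. The muscle of mouse 14 held the most, as it did for the oxygen store myoglobin, Mb, at 150.3, 49.1, 28.4 and 32.9 CPM. Casq2 and Csrp3 were the others, at 4.71 and 1.31 CPM in muscle. Atp2a2, the calcium pump of heart and slow fibres and of most other cells, was higher in kidney at 3.27 ± 0.12, and Tpm3 at 2.27 ± 0.11. With upper quartile scaling 7 of the list were higher in muscle and 2 in kidney.

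The machinery around the fast myosin was higher in muscle for nearly every gene listed. Of 28 sarcomere scaffold and Z-disc genes 27 were higher in muscle, the exception being the M-band gene Myom3 at -0.28. Of 18 genes of excitation-contraction coupling 18 were higher, led by Ryr1, the calcium release channel, with 7846, 7229, 8676 and 8005 CPM in muscle and 6.65, 9.18, 8.34 and 7.98 CPM in kidney. Cacna1s, the voltage sensor that opens it, differed by -8.71, the sodium channel Scn4a by -8.07 and the chloride channel Clcn1 by -6.82. The 2 scaffold and calcium lists therefore had like medians, -7.52 and -7.50. The muscle-restricted list (kelch, sarcoglycan and secreted genes) had 23 of 23 higher, including Klhl41 (-8.90), Tmod4 (-8.87), the sarcoglycan Sgca (-6.52) and the myokine precursor Fndc5 (-2.89).

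Neuromuscular junction genes were lower and more mixed. Of 12 there were 8 higher in muscle, or 7 without mouse 19, and 2 in kidney. Musk, the receptor kinase that builds the junction, had 8.12, 9.17, 54.5 and 27.9 CPM in muscle, both males above both females, and 0.762 to 1.08 CPM in kidney. Chrne, the adult acetylcholine receptor subunit, differed by -3.14, and the fetal subunit Chrng by -0.61, not past the test. Agrn and Lrp4, the ligand and co-receptor of Musk, which also have roles outside muscle, were higher in kidney at 2.99 ± 0.12 and 1.40 ± 0.12. Agrn stood at 135.1, 121.2, 118.1 and 130.8 CPM in kidney and 13.5, 17.4, 16.1 and 16.8 CPM in muscle. With upper quartile scaling the counts were 9 in muscle and 1 in kidney.

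Of 22 muscle transcription and fusion genes 15 were higher in muscle. The histone methyltransferase Smyd1 (391.1, 386.7, 442.7 and 385.4 CPM in muscle) and Tbx15, a factor of glycolytic fibres, led at -8.13 and -7.96. Of the 4 myogenic factors, Myf6 (MRF4), which persists in adult fibres, differed by -6.90 at 37.3 CPM, Myod1 by -3.75 and Myog by -2.89, and Myf5 was at -1.13 without passing. The fusion genes Mymk and Mymx, used when fibres form, were under 1 CPM in both organs. Prdm16 was higher in kidney, at 26.6 against 7.71 CPM. Myostatin, Mstn, the inhibitor of muscle growth, was at 71.8, 71.3, 98.1 and 73.0 CPM in muscle and at background in kidney.

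Energy genes were higher in muscle as well. Of 22 glycolysis and glycogen genes 19 were higher in muscle, with a median of -3.82. Eno3, the muscle enolase, held 4152, 4427, 4499 and 4141 CPM in muscle and 3.59 to 4.38 CPM in kidney, and the glycogen phosphorylase Pygm differed by -9.80. Gapdh differed by -2.36, Tpi1 by -2.26 and Gpi1 by -1.45, while Pgk1 (-0.95) and Gpd1 (-0.88) did not reach the 2-fold test. Pgm2 was higher in kidney at 2.09. Aldoa shares its symbol with another row and was not tested. Of 9 genes of creatine, adenylate and oxygen buffers 8 were higher in muscle, among them Ampd1 (-10.54), Ckmt2 (-9.56) and the adenylate kinase Ak1 (-6.15). The creatine importer Slc6a8 was at 0.63, with 99.8 CPM in kidney and 64.4 CPM in muscle.

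Summed over lists, 240 genes of the kidney lists took 7.29% ± 0.229 of a kidney library (SD, n = 4) and 0.254% of a muscle library, and 162 genes of the muscle lists took 44.4% ± 1.24 of a muscle library and 0.394% of a kidney library. In bulk tissue, fewer cells of a type and less RNA per cell cannot be told apart.

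Both organs often used the same protein family through different genes. Of 30 pairs made of a broadly used gene and its muscle counterpart, 1 was not tested and 27 had members that differed in opposite directions at an adjusted p below 0.05. These calls were made with TMM, and the broadly used gene of some pairs did not pass the 2-fold test. In the elongation factor pair, Eef1a1 held 1570, 1426, 1439 and 1462 CPM in kidney and 106.3, 112.4, 73.3 and 119.5 CPM in muscle. Eef1a2, its counterpart in muscle and neurons, held 0.528 to 0.843 CPM in kidney and 760.3, 693.5, 939.4 and 755.9 CPM in muscle. Eef1a2 was thus 0.0537% of the pair in kidney and 90.2% in muscle, both per kilobase of exon. Ribosomal protein L3 showed the same exchange. Rpl3 had 147.0, 143.0, 126.4 and 116.4 CPM in kidney and 19.2, 18.7, 13.4 and 17.9 CPM in muscle, and Rpl3l, its striated muscle form, took 97.2% of the pair in muscle and 1.71% in kidney.

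Creatine kinases and a cytochrome oxidase subunit behaved alike. Ckb was higher in kidney by 3.39 while Ckm differed by -13.14, and Ckmt1 by 4.79 while Ckmt2 differed by -9.56. Cox6a1 (4.90) and Cox6a2 (-8.03) are subunits of the same respiratory complex, and Cox6a2 was 96.0% of the pair in muscle and 0.314% in kidney. The exchange was one-sided in some families: Pfkm was 61.2% of the phosphofructokinase pair in kidney and 99.8% in muscle, and Gys1 58.3% and 99.4% of the glycogen synthase pair. Both caveolins of 1 pair lay on the muscle side, Cav1 at -1.37 and Cav3 at -4.97. In the acetyl-CoA carboxylase pair Acacb was at -2.63 and Acaca was not called.

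**Figure D4:**
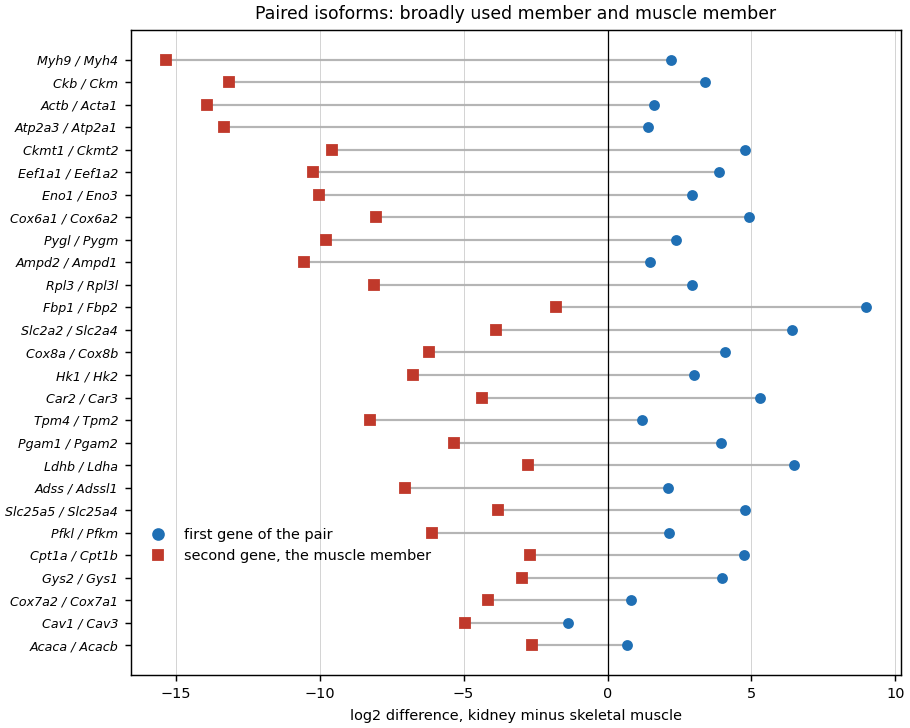
Log2 difference (kidney minus skeletal muscle, x axis) of both genes of 27 pairs, circle for the broadly used gene and square for its muscle counterpart, ordered by the gap between them. The pairs drawn include those of caveolin and acetyl-CoA carboxylase, so they are not the same 27 as the opposite pairs of the text. The gap runs from 17.57 for Myh9 and Myh4 to 3.30 for Acaca and Acacb, and the caveolin pair alone has both points on the muscle side.

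Lists of genes that both organs need had medians between -0.63 and 0.51, and all but that of the proteasome changed sign with the scaling. The median of all genes moved with it, and relative to that median none of these lists changed side. The splicing list stayed at 0.67 to 0.68 and the proteasome list at -0.47 to -0.46 relative to all genes. None of 29 nuclear genes of respiratory complex I and ATP synthase was called beyond 2-fold, with a median of -0.23 that became 0.36 with library totals. With upper quartile scaling 6 of them were higher in muscle, and with library totals 1 in kidney. The largest were Ndufc1, at -1.03 ± 0.10, and Atp5g3, at 0.70 ± 0.09. Of 13 mitochondrially encoded genes none passed the 2-fold test. mt-Co1 was at 8853 and 8849 CPM, and the list median was -0.04, or 0.56 with library totals. The 37 cytosolic ribosomal protein genes had a median of 0.09, which became -0.53 with upper quartile scaling, and Rpl3 was the one past the test. In the proteasome list 20 of 30 genes were higher in muscle at any size, against 14.2% of all tested genes. Beyond 2-fold 3 of them were higher: Psmd7 at -1.58, Psmd6 at -1.42 and Psmb7 at -1.35. The list median of -0.63 lay on the muscle side under every scaling tried, but with library totals it was only -0.03, against an SD over mice of 0.15. The number past the 2-fold test was 16 with upper quartile scaling and 0 with library totals. Of 22 splicing and transcription genes 17 were higher in kidney at any size, against 22.0% of all tested genes. The list median of 0.51 turned to -0.11 with upper quartile scaling. List counts at any size were made with TMM only. With library totals 9 of them were higher in kidney beyond 2-fold, and without mouse 19 there was 1. Prpf19 went the other way at -1.46 ± 0.11, with 42.1 to 48.1 CPM in kidney and 126.3, 111.7, 141.6 and 113.7 CPM in muscle.

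Hox genes record the position of a tissue along the body axis. Of 39 genes 14 were higher in kidney and 2 in muscle, or 1 without mouse 19. The shares over all tested genes were 9.58% and 3.79%, and the muscle count lay near the second. The kidney genes included the whole run from Hoxb3 to Hoxb9. Hoxb8 had 19.6, 16.2, 13.2 and 12.9 CPM in kidney and 0.968, 1.58, 1.94 and 1.05 CPM in muscle, a difference of 3.51 ± 0.24. Hoxa5, Hoxa7 and Hoxa9 and Hoxd4, Hoxd8, Hoxd9 and Hoxd10 were the others. The 2 muscle genes were both of the HoxC cluster: Hoxc10, at 34.7, 32.1, 46.0 and 38.6 CPM in muscle and 6 to 7.87 CPM in kidney, and Hoxc11, at 2.50 and 0.715 CPM. Scaling moved these counts to 8 and 4 with upper quartile scaling and to 20 and 1 with library totals.

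Markers of other cells differed between the organs as well, and their part in the other results was not tested. Over all tested genes, 9.58% were higher in kidney and 3.79% in muscle, the shares beside which the counts of these short lists stand. Of 18 endothelial genes 4 were higher in kidney: Plvap (3.62), a diaphragm protein of fenestrated vessels, Emcn (2.59), Eng (1.83) and Kdr (1.29). The list summed to 480.7 to 660.8 CPM in kidney and 294.6 to 344.2 CPM in muscle, and its median of 0.61 became -0.02 with upper quartile scaling. The counts were then 2 in kidney and 3 in muscle, against 8 in kidney with library totals, and without mouse 19 there was 1 in muscle. The smooth muscle and pericyte list of 12 genes had a median of 0.01. Abcc9 (-3.75), Mustn1 (-2.92) and Rgs5 (-2.04) were higher in muscle, and contractile smooth muscle genes such as Myh11 (0.20) were level. At any size 3 of the 12 were higher in kidney, and with library totals 3 were higher there beyond 2-fold. Of 20 fibroblast and collagen genes 13 were higher in muscle, or 15 without mouse 19. Thbs4, a tendon and muscle matrix protein, had 66.7, 49.2, 11.7 and 19.5 CPM in muscle, and Dpt (dermatopontin) 41.6, 38.8, 12.4 and 44.8 CPM, with mouse 19 lowest for both. The sum of the list ran from 603.9 to 1888 CPM in muscle and from 280.2 to 636.1 CPM in kidney.

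Immune genes lay on both sides, and 9 of 17 macrophage and dendritic genes did not pass the test. The class II antigen presentation genes H2-Ab1, H2-Aa, H2-Eb1 and Cd74, with Mpeg1 and Csf1r, were the 6 of 17 macrophage and dendritic genes higher in kidney. H2-Ab1 had 56.4, 56.0, 49.8 and 56.7 CPM in kidney and 13.1, 13.7, 8.74 and 16.7 CPM in muscle. The scavenger receptors Cd163 (-3.23) and Mrc1 (-1.85), marks of resident macrophages, were higher in muscle, and 3 genes were higher there without mouse 19. Of 12 lymphocyte genes Ptprc alone passed, at 1.56. Red cell genes were higher in kidney for 7 of 8. Hbb-bs had 209.7, 152.2, 112.1 and 137.4 CPM in kidney and 25.4, 19.3, 10.02 and 23.7 CPM in muscle. Hba-a1 and Hba-a2 are near-identical copies whose reads cannot be assigned with certainty.

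In the fat list, Plin4, also a gene of muscle fibres, was higher in muscle at -5.18 ± 0.37, and the lipoprotein lipase Lpl was higher in kidney at 2.33 ± 0.31. Kidney 15 carried the defining adipocyte genes: Adipoq was 0.236, 11.7, 0.219 and 0.531 CPM in kidney and 2.89, 3.88, 1.78 and 20.5 CPM in muscle. The brown fat gene Ucp1 was 33.6 CPM in kidney 15 and 0.326 to 0.427 CPM in the other kidneys. Neither was called, and both were chosen for mention after their values were seen. Of 11 genes of the nerve list 2 were higher in muscle, among them the Schwann cell gene Drp2 (-1.78). Only 1 was higher in kidney, Mal at 5.82, which kidney tubules also use. At any size the counts were 4 in muscle and 2 in kidney. Of 7 satellite cell genes Cdh15 (-3.98) and Chodl (-2.87) were higher in muscle, while Pax7, the defining one, was at -1.53 and did not pass. At any size 4 of the 7 were higher in muscle and 1 in kidney. Of 12 cardiac genes, Actc1 (-8.98) and Myl4 (-1.56) were higher in muscle. Actc1 had 294.2, 611.9, 145.6 and 145.3 CPM there. The heart genes Myh6, Nppa and Tnni3 were at 6.75, 0.659 and 1.46 CPM in muscle. Of 11 adrenal genes Pnmt alone passed, at -1.72 with 1.98 CPM in muscle, and none did without mouse 19. Of 8 liver genes 4 were higher in kidney, Ttr at 5.41, Alb at 4.03, Serpina1a at 3.40 and Apoa2 at 2.50.

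The same organs of 4 mice of 86 weeks gave nearly the same picture. There 3623 of 41036 genes (8.83%) were higher in kidney beyond 2-fold and 1287 (3.14%) in muscle, 4910 in all. Of the 5315 genes of the younger mice 5309 were tested, 5308 had the same sign, and 4497 were also past the 2-fold test in the same direction. These are 84.6% of the younger list and 91.6% of the older one. By direction they were 3306 of the 3808 kidney genes and 1191 of the 1507 muscle genes. Kap differed by 11.18 in the older mice, Umod by 9.67, Myh4 by -15.03 and Ckm by -12.35. The Thbs4 difference of -4.05 at 16.5 weeks was -2.23 at 86 weeks, and that of Actc1 was -8.98 and -6.45. The age terms of both were not called (edgeR adjusted p 0.832 and 0.54).

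A direct test of whether the organ difference changed with age called 1 of 43771 genes, 0.00228%. This was Mettl21c (chr1:44009408-44020034), a protein lysine methyltransferase of muscle. It held 15.95, 19.01, 40.5 and 54.05 CPM in the muscles of the younger mice and 17.8, 18.45, 23.4 and 19.9 CPM in those of the older ones. In kidney it was 0.122 to 0.291 CPM in the younger and 0.789 to 0.954 CPM in the older mice, all scaled over both ages together. The muscle values overlapped between the ages, and the kidney values, all below 1 CPM, did not. At 16.5 weeks its kidney level was within background. The term, the organ difference at 86 weeks minus that at 16.5 weeks, was 2.63 ± 0.30 (edgeR adjusted p 0.0202). The call was lost with library totals, without the low-count filter, with a minimum of 1 CPM, without the mouse block, and without mouse 15, 19 or 20 of the younger or mouse 12 or 17 of the older mice, with terms of 2.37 to 2.71 in those fits. In the next gene by p, Npy1r, the term was 1.95 ± 0.27 and was not called (edgeR adjusted p 0.0989).

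The organ difference depended on sex for 295 of 43536 genes, 0.678%, of which 281 are autosomal, with 2 mice of either sex. For 228 of the 295 the gap between the sexes was larger in kidney. That share was not counted over all tested genes, and a gap can hardly show where muscle is below 1 CPM, so it is not read as a kidney excess. Some of the 295 are predicted genes with 0 counts in most libraries and extreme terms, such as Gm20431 (20.73) and Gm49369 (-18.55). The interaction term is the organ difference in males minus that in females. Slco1a1, an organic anion transporter of the proximal tubule, had 0.831 and 0.592 CPM in the female kidneys and 455.7 and 362.1 CPM in the male ones, and 0.690 to 2.04 CPM in muscle. Its term was 8.61 ± 0.41 (edgeR adjusted p 0.000276). Cyp2j13, Pzp and Cyp4a12a had the same form, with terms of 6.58, 6.81 and 4.92, and all 3 stayed below 3 CPM in both female kidneys and in muscle. Fmo5 (3.29) and Amacr (2.36) were present in both sexes and higher in male kidney.

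The reverse pattern held for Abcc3, Rdh16f2, Cbr1, Igf2 and Bhmt. Abcc3, a basolateral export pump, had 91.3 and 103.9 CPM in the female kidneys and 3.39 and 4.46 CPM in the male ones, with 2.89 to 3.69 CPM in muscle, and a term of -4.41 ± 0.20. Cbr1, a carbonyl reductase, fell from 242.3 and 239.4 CPM in female kidney to 16.2 and 20.2 CPM in male kidney, close to the muscle level of 13.1 to 16.2 CPM. For Rdh16f2 the male kidneys, at 23.6 and 23.3 CPM, were still above muscle, where it was below 1 CPM. For Igf2 the female kidneys (62.0 and 104.6 CPM) lay above muscle (7.44 to 14.7 CPM) and the male kidneys (2.17 and 3.09 CPM) below it. Amd2, an adenosylmethionine decarboxylase gene, differed by sex in muscle instead, with 26.2 and 23.1 CPM in the females and 224.1 and 204.2 CPM in the males against 5.36 to 6.77 CPM in kidney. It shares reads with near-identical copies, so the gene within that family is uncertain. Kap, for which muscle 19 is high, had a sex term of -1.24 that was not called (edgeR adjusted p 0.901).

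**Figure D5:**
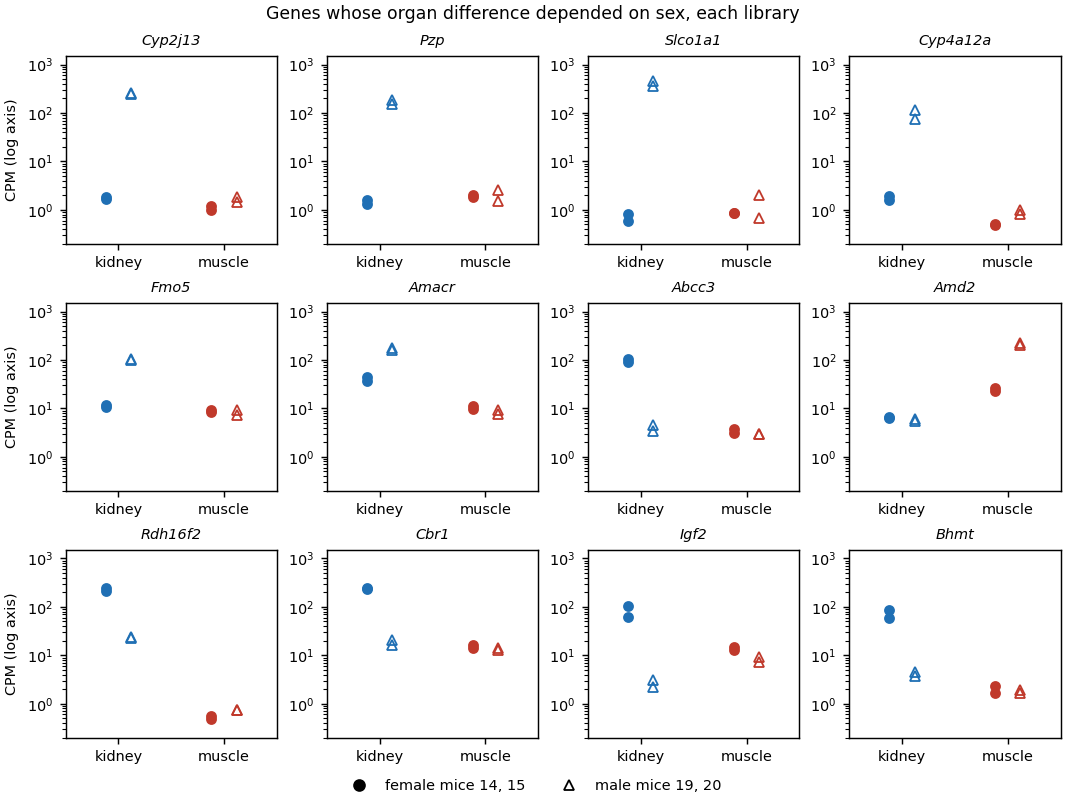
CPM (log axis) in each library of 12 genes whose organ difference depended on sex, the 6 with the smallest p in each direction among nameable autosomal genes; filled circles are the females 14 and 15 and open triangles the males 19 and 20. In 11 of the 12 genes the sexes part in kidney, as for Slco1a1 with 0.592 to 0.831 against 362.1 to 455.7 CPM, and in Amd2 they part in muscle.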

How the data were processed

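The submitters' processing notes name STAR 2.7.6a, StringTie 2.1.1 and the build GRCm38.p6. The deposited values are whole-number counts per gene for 24 libraries and were used as deposited. The annotation release, the strand setting and the way StringTie gave counts are not given in the sources used here. RNA was extracted with a Zymo Direct-zol kit and made into libraries with Zymo-Seq RiboFree, per the labels' protocols. Replicates are separate mice.

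Of 55401 genes, 54349 matched GENCODE M21 (GRCm38), the source of coordinates and exon lengths. Counts were fitted with edgeR 4.0.16 in R 4.3.3 (filterByExpr, TMM, quasi-likelihood test, mouse as block, Benjamini-Hochberg), and glmTreat gave the test against 2-fold. The fits were tested on simulated data, in which the share of false calls was above the nominal rate for each test but that against 2-fold. Mouse numbers pair the organs because 1 animal gave both. Deviations from the organ means of 19144 genes correlated at 0.146, 0.172, 0.194 and 0.049 within mice and at -0.22 to 0.179 between mice. Different mice of the same sex gave 0.048 to 0.179, which overlaps the values within mice. These correlations therefore cannot tell a shared mouse from a shared sex. Interactions with sex and age were fitted across the organs of the same mice. Motif intervals are exact binomial at 95%. Other scalings, filters, DESeq2 1.42.0, limma-voom 3.58.1 and fits without the block or without each mouse were alternatives.

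The members and lists were chosen with earlier results of these data known. Named genes were the 10 largest differences in each direction with at least 100 CPM and the 6 of highest mean CPM. The 3 largest of each list, 12 isoform pairs, and the 6 smallest p in each direction of an interaction were also named. Predicted and multiply listed symbols were left out. Other list members and pairs were named after their values were seen. Some genes that these rules reach are not reported here.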

Additional observations from a re-analysis of the deposited data

Results flagged for a closer look

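Single libraries stood far from the other 3 of their organ for 30 of 288 gene and organ combinations, 10.4%, where chance gives about 1 in 20. In 22 of them the muscle library of mouse 19 was the highest. Most of these were kidney genes: Lrp2 was at 35.9 CPM there, Kap at 22.6, Slc27a2 at 19.7, Umod at 18.5, Acsm2 at 18.2, Slc34a1 at 15.3 and Slc12a1 at 10.9 CPM. Mep1a was at 8.96, Cyp2j5 at 7.81, Kl at 6.28, Akr1c21 at 4.20, Cdh16 at 4.18, Slc22a12 at 4.09 and Cltrn at 3.91 CPM. Klk1 was at 2.87, Miox at 2.67, Fbp1 at 2.41, Slco1a1 at 2.04 and Spink1 at 0.926 CPM. The muscle genes Tnnt3 (17700 CPM), Smyd1 (442.7 CPM) and Mstn (98.05 CPM) were also highest in that library.

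Kidney 19 was the highest kidney library for Myh4 (9.998 CPM) and Tnnt3 (1.66 CPM) and the lowest for H2-Ab1 (49.8 CPM). Kidney 14 was the lowest for Actn3 (0.842 CPM) and the highest for Acaa1b (323.8 CPM). Kidney 15 was the highest for Plin4 (23.6 CPM) and Cd163 (2.96 CPM), and muscle 15 was the lowest for Ckmt2 (224.4 CPM).

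The organ difference itself differed between the sexes (edgeR interaction term, males minus females) for Slco1a1 (8.61), Pzp (6.81), Cyp2j13 (6.58), Cyp4a12a (4.92), Fmo5 (3.29) and Amacr (2.36). The term was negative for Abcc3 (-4.41), Igf2 (-4.20), Bhmt (-3.95), Rdh16f2 (-3.79), Cbr1 (-3.58) and Amd2 (-3.30). Between the ages it differed for Mettl21c (2.63), a call that was lost in 9 of 16 alternative fits and whose kidney level at 16.5 weeks was within background.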

How the results depend on the processing

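The organ difference was called for 14421 genes and for 24956 with upper quartile scaling. Beyond 2-fold it was called for 5315 genes and for 8001 with library totals. At 86 weeks 12359 genes were called at any size, and 21617 with upper quartile scaling. Leaving out a mouse gave 11990 to 12561, 4949 to 5124 and 9985 to 12455 genes for these 3 results. The other alternatives stayed within 1.5 times. Under library totals 2 of 151 named genes turned sign, mt-Nd2 to 0.28 and mt-Nd6 to 0.34. Between 144 and 150 of the named genes kept direction and side of the threshold under each alternative.

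The count for the organ difference by sex was less stable. It was 295, against 839 with DESeq2, 509 with limma-voom and 51 with no low-count filter. It was 116 without replicate 14, 103 without replicate 15, 308 without replicate 19 and 492 without replicate 20. The 12 named genes were called in the same direction in these fits, but each fit without a mouse leaves 1 mouse of a sex, which is assumed to vary like the others, and so says little about stability. By age the count was 1, against 13 with DESeq2 and 2 with limma-voom. It was 0 with library totals, no low-count filter, a minimum of 1 CPM or no replicate block (edgeR), where 1417, 1884, 939 and 1761 genes had an unadjusted p below 0.05, and 0 to 4 when a mouse was left out. The cause of these changes was not tested.

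Without the replicate block that pairs the organs of a mouse, the counts were 15187, 5353 beyond 2-fold, 13301 at 86 weeks, 404 by sex and 0 by age. A filter at the olfactory receptor background, chosen after seeing the data, gave 14637 and 5072 genes. The list counts without mouse 19 were also added then. With 4 mice and 2 of either sex, small differences and low genes have limited precision.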
